A study of Mus musculus with 4 samples.

Results

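The nuclear-encoded part of the mitochondrial respiratory chain and ATP synthase was examined in MEFs, fibroblasts grown in culture from mouse embryos. Members were every probe whose gene symbol began with Ndufa, Ndufb, Ndufc, Ndufs, Ndufv, Sdh, Uqcr, Cox4, Cox5, Cox6, Cox7, Cox8 or Atp5 and whose detection score was above 0.99 on at least 1 array. By name there were 132 probes of 89 genes, of 46632 probes in all. Of these, 112 probes of 83 genes passed the detection score, among 19656 probes that passed in the whole data set. The 20 remaining probes were not detected on any array and are not tested. They left 6 genes without a detected probe: Cox7b2, Cox8b, Cox8c, Ndufaf6, Ndufs1 and Sdha. The name rule also takes in 11 assembly factors, which help build complexes I and II without being part of them, so these are kept apart from the subunits below. Just inside the detection limit lay the probe of Cox4i2, with a highest score of 0.9901, and just outside it further probes of Cox6b2 at 0.938, Ndufa13 at 0.916 and Ndufb2 at 0.914.

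Complexes I to IV sit in the inner mitochondrial membrane and pass electrons from NADH and succinate to oxygen. Complexes I, III and IV pump protons as they do so, and ATP synthase, also called complex V, lets the protons flow back to make ATP. Most subunits are encoded in the nucleus and imported. The catalytic heart of complexes I, III and IV also holds subunits encoded by mitochondrial DNA, which the name rule does not take in.

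The cells were wild type (WT) or lacked STAT3 (STAT3KO), a transcription factor that cytokine receptors activate, and were labelled as a MEF cell line of strain C57BL/6. Each genotype was left untreated or exposed for 2 h to 1000 U per ml of IFNa, an antiviral cytokine of the type I interferons. That gave 4 groups, namely WT untreated, WT IFNa, then STAT3KO untreated and finally STAT3KO IFNa, with 1 Illumina bead array for each and no replicates. The labels do not say how many lines stand behind a genotype, and the sources used here do not give which part of Stat3 was deleted. All 4 arrays lay on 1 BeadChip, and position on it and group cannot be told apart.

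Values are log2 of the authors' normalized intensity, and 4 values in a row always follow the order of the groups above. The mean genotype difference is the average of STAT3KO minus WT without and with IFNa. The mean IFNa response is the average of IFNa minus untreated over both genotypes. Both were tested with limma over the 19656 detected probes, and a probe was called at an adjusted p under 0.05. With 1 residual degree of freedom, these p-values rest on the spread of other probes of like brightness and hold no spread between cultures. A difference between 2 arrays is a value without a test.

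Stat3 had log2 levels of 10.13, 10.39, 6.94 and 6.78 by its brighter probe and 9.85, 9.86, 6.87 and 6.95 by the other. Both probes were lower in STAT3KO, by mean differences of -3.40 and -2.94, and both were still detected there. The arrays detected between 16076 and 17524 probes each, and between 107 and 111 of the 112 member probes. Of 12 fibroblast markers, 11 were detected in both WT groups, 10 in STAT3KO untreated and 9 in STAT3KO IFNa, and Lum was not detected. Of the 11, 9 were lower in STAT3KO and 0 higher, with a median difference of -3.26, and their summed intensity was 81991, 71006, 44536 and 50193. Vim was not called, at -0.03, while Thy1, a surface protein of fibroblasts, was not detected in either STAT3KO group. Markers of other cell types were also read, those of muscle beside the muscle isoforms below. Macrophage markers (0 of 2 on the array) were not detected. Epithelial markers summed to 1281, 1030, 1003 and 891, endothelial markers to 517, 546, 540 and 508, and neural markers to 642, 625, 515 and 573. Among them Krt19, an epithelial keratin, and Nes, a neural filament protein, were lower in STAT3KO, by differences of -0.64 and -0.65. The genotypes thus differed in more than Stat3, and the part of these other differences in the results below was not tested.

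Respiratory chain probes were more often higher than lower in STAT3KO. Of the 112 probes, 40 probes of 30 genes were higher and 13 probes of 11 genes were lower, while 59 were not called. Over all 19656 detected probes 36.1% were called, 19.1% higher and 17.1% lower, whereas the members' shares were 35.7% and 11.6%. The median member difference was 0.22 on the log2 scale, or 1.16-fold, against 0.00 over all probes. Since members are mostly bright, they were also set beside the 2886 other probes that every array detected and whose mean log2 level was at least 10. Of those, 26.3% were higher and 24.5% lower, with a median of 0.00. The 70 members at that level held 26 higher and 3 lower, with a median of 0.29. Among the 106 members detected on all 4 arrays, 40 were higher and 11 lower, with a median of 0.25, where 21.5% and 19.1% of all probes so detected were. With 1 probe a gene, the brightest, 28 of 83 genes were higher, 10 lower and 45 not called, where 23.2% of all named genes were higher and 20% lower. In RNA from a bulk culture, fewer cells of a type and less RNA per cell cannot be told apart. The calls depended on the scaling: with each array scaled to its 75th percentile, 3 of the 53 calls remained, 1 higher and 2 lower, although all 53 kept their sign. The 2 lower were Cox6a2 and Uqcrfs1, neither of them detected on all 4 arrays, while Ndufb10, for 1, lost its call.

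The differences were modest in size. Those called higher spanned 1.29-fold to 3.17-fold, with a median of 1.55-fold, and those called lower 1.24-fold to 2.2-fold, with a median of 1.49-fold. All 40 higher and all 13 lower probes had the same sign without and with IFNa. The call was made on the mean of these 2 differences, so a shared sign is no separate support. Of the 40 and the 13, 17 and 5 were past 1.5-fold in both. The uncalled probes lay between -0.30 and 0.50, all under 1.5-fold, with standard errors of 0.13 to 0.26 over the members. Without IFNa, 27 members were at least 1.5-fold higher and 5 lower, where 12.2% and 10.1% of all probes were. With IFNa, 27 were higher and 7 lower, where 10.4% and 10.5% of all probes were. Past 2-fold there were 3 higher and 1 lower without IFNa (4.85% and 4.34% of all probes), and 3 higher and 2 lower with IFNa (4.17% and 4.57%).

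**Figure D1:**
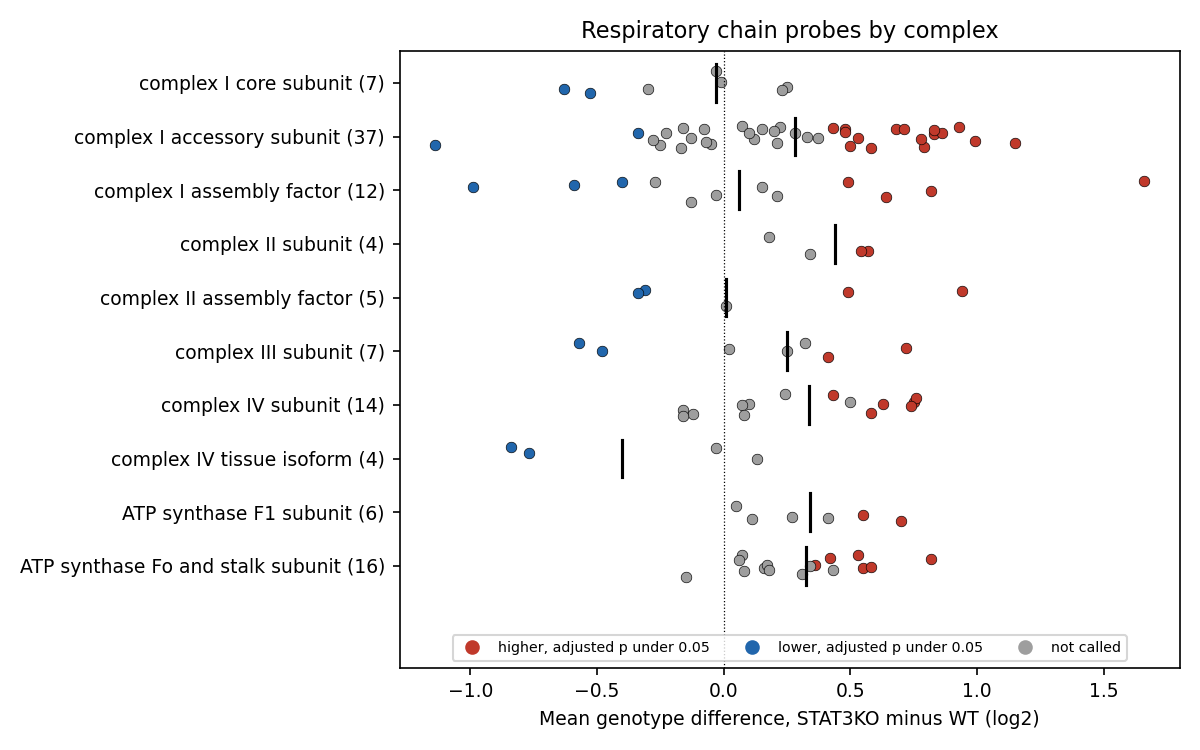
Mean genotype difference (STAT3KO minus WT, log2) of each of the 112 member probes, by complex and role, with the number of probes in parentheses and a black bar at the median of each class. Red points were higher and blue points lower at an adjusted p under 0.05. ATP synthase, the complex II subunits and the ubiquitous complex IV subunits hold no blue point, while complex I holds both colours.

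The promoters of 4 genes that carry these results are shown first, because they differ in direction. Ndufa9 and Sdhaf4 were higher in STAT3KO, Ndufb10 was lower, and Cox7a1 was lower in STAT3KO and also lower after IFNa. Each window is from RefSeq on GRCm38.p6, runs from 250 bases before to 50 bases after the annotated start, and is written 5′ to 3′ on the gene's strand. Ndufa9 lies at chr6:126849095-126849394 on the minus strand, Sdhaf4 at chr1:24005591-24005890 on the minus strand, Ndufb10 at chr17:24724374-24724673 on the minus strand and Cox7a1 at chr7:30183921-30184220 on the plus strand. Capitals mark a searched motif.
Ndufa9: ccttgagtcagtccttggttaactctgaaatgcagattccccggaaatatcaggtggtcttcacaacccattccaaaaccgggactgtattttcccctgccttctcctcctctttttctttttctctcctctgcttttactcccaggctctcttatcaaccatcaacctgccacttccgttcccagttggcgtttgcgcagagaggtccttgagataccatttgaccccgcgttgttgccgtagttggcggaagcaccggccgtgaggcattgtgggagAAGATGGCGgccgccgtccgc
Sdhaf4: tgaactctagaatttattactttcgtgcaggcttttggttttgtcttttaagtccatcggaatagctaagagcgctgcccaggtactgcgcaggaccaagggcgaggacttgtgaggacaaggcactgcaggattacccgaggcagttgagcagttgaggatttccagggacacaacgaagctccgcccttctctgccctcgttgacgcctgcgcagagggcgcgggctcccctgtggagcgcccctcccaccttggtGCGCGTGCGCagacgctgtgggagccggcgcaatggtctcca
Ndufb10: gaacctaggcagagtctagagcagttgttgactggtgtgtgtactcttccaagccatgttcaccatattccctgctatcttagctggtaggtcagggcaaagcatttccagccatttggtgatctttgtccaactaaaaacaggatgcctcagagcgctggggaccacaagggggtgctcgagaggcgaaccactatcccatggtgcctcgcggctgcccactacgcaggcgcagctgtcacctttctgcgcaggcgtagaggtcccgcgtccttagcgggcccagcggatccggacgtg
Cox7a1: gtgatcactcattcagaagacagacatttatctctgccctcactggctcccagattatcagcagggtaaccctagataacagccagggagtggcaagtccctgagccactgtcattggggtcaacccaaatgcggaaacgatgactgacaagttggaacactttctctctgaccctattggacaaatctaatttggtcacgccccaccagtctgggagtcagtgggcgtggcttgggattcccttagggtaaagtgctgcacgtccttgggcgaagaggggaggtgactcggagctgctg

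Both strands were searched for GCGCA, any base, GCGC, a motif of NRF1, for CCGGAAG, a core motif of the ETS family that GABPA reads, for AAGATGGCG, a motif of YY1, and for TTCNNNGAA, the spaced palindrome that STAT proteins read. These factors other than STAT are known regulators of respiratory chain genes. The window of Ndufa9 held the YY1 motif beginning 29 bases past the start, and that of Sdhaf4 held the NRF1 motif on its reverse strand, beginning 8 bases past the start. The windows of Ndufb10 and Cox7a1 held none of the 4 motifs. Of the 83 genes, 71 matched an entry of the promoter table, with 76 windows. The NRF1 motif stood in 18 of the 76 windows (23.7%), against 4.6% of all 32851 windows and 9.41% of the 10896 windows of genes with a detected probe. The ETS motif stood in 21 (27.6%), against 8.86% and 16.3%. The YY1 motif stood in 7 (9.21%), against 1.4% and 2.85%, and the STAT motif in 6 (7.89%), against 8.3% and 7.05%. Split by the genotype call, the NRF1 motif stood in 5 of 26 windows of genes called higher, 2 of 7 of those called lower and 11 of 43 of those not called. The counts in the same order were 8, 2 and 11 for the ETS motif, 4, 0 and 3 for the YY1 motif and 1, 0 and 5 for the STAT motif. Overlaps between motifs were not removed, and a match is a description of the letters in a window.

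Complex I takes electrons from NADH and is the largest of the complexes. Its 44 subunit probes of 32 genes split into 16 higher, 4 lower and 24 not called, with a median of 0.22. The higher calls were all in accessory subunits, which surround the catalytic core. Of the 37 accessory probes 16 were higher and 2 lower, where 19.1% and 17.1% of all probes were. Of the 7 probes of core subunits 0 were higher and 2 lower. Both of these were probes of Ndufv2, 1 of 5 core genes, so the core is too small for a contrast with the accessory subunits. By name, the Ndufa family held 11 higher and 0 lower of 19 probes, 4 of the 11 from Ndufab1, with a median of 0.53. The Ndufb family held 3 higher and 2 lower of 11 probes (median -0.07), the Ndufs family 1 higher and 0 lower of 8 (median 0.24), and the Ndufv family 0 higher and 2 lower of 5 (median -0.30).

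Ndufa9, an accessory subunit at the joint between the peripheral and membrane arms, had log2 levels of 11.46, 11.42, 12.61 and 12.57. Its mean difference was 1.15 ± 0.15 (SE; adjusted p = 1.79e-13), or 2.22-fold, and both STAT3KO arrays lay above both WT arrays. Ndufb2, a small membrane-arm subunit, had levels of 7.85, 7.99, 8.96 and 8.84, a difference of 0.99 (adjusted p = 1.9e-12). Ndufa5, an accessory subunit of the peripheral arm, had 11.56, 11.74, 12.44 and 12.57, a difference of 0.86 (adjusted p = 9.38e-08). Its other probe gave 0.93. Ndufab1, the mitochondrial acyl carrier protein, is both a complex I subunit and a carrier in mitochondrial fatty acid synthesis. It had levels of 12.13, 12.42, 13.13 and 13.10, and 4 of its 5 probes were called higher, while the fifth, near background, gave 0.21 (adjusted p = 0.33). Ndufa3, a small membrane-arm subunit, had levels of 11.34, 11.45, 12.29 and 12.14, a difference of 0.83 (adjusted p = 1.21e-07). In each of these 5 genes, picked for their large differences, the groups of the 2 genotypes did not overlap, which the choice favours. Ndufa2, Ndufa6, Ndufb3, Ndufc1 and Ndufs5 were also called higher, by 0.43 to 0.78, as was the dimmer of the 2 probes of Ndufb8, at 0.50, while the brighter gave -0.13.

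The opposite direction was largest in Ndufb10, an accessory subunit of the membrane arm. Its levels were 12.15, 11.86, 10.86 and 10.87, a mean difference of -1.14 ± 0.14 (SE; adjusted p = 6.56e-15), or 2.2-fold lower. Ndufv2, a core iron-sulfur subunit of the module that oxidises NADH, was lower by both of its probes. The brighter one had levels of 12.00, 11.98, 11.39 and 11.33, a difference of -0.63 (adjusted p = 6.57e-05), and the other gave -0.53. Its partner Ndufv1, which binds the flavin that accepts electrons from NADH, had 12.27, 12.35, 11.97 and 12.05, and its -0.30 was not called (adjusted p = 0.114). Ndufb9, a membrane-arm subunit, had 11.20, 11.06, 10.65 and 10.93, a difference of -0.34 (adjusted p = 0.0323). Both STAT3KO arrays lay below both WT arrays in all 4 of these genes. How many of all probes did so was not counted, so the lack of overlap gives no separate support to a direction.

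Ndufa13 is a membrane-arm subunit that is also known to bind STAT3. It had levels of 13.79, 13.98, 14.17 and 14.04, and its difference of 0.22 was not called (adjusted p = 0.464). The difference was 0.38 without IFNa and 0.06 with IFNa. Ndufs3, Ndufs7 and Ndufs8, core subunits of the peripheral arm, were not called either. The brighter probe of Ndufs3 had 11.42, 11.32, 11.70 and 11.53, Ndufs7 had 11.65, 11.95, 12.06 and 12.00, and Ndufs8 had 12.03, 12.16, 12.08 and 12.05. Their differences were 0.25, 0.23 and -0.03, and the genotypes overlapped in Ndufs8. Ndufs4, an accessory subunit needed to hold the NADH-oxidising module in place, gave 0.20, 0.28 and 0.37 by its 3 probes, none of them called. Ndufa4 is counted here by its name with complex I, although it is known as a subunit of complex IV. It had levels of 13.35, 13.42, 13.89 and 14.05, a difference of 0.58 (adjusted p = 0.00898).

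**Figure D2:**
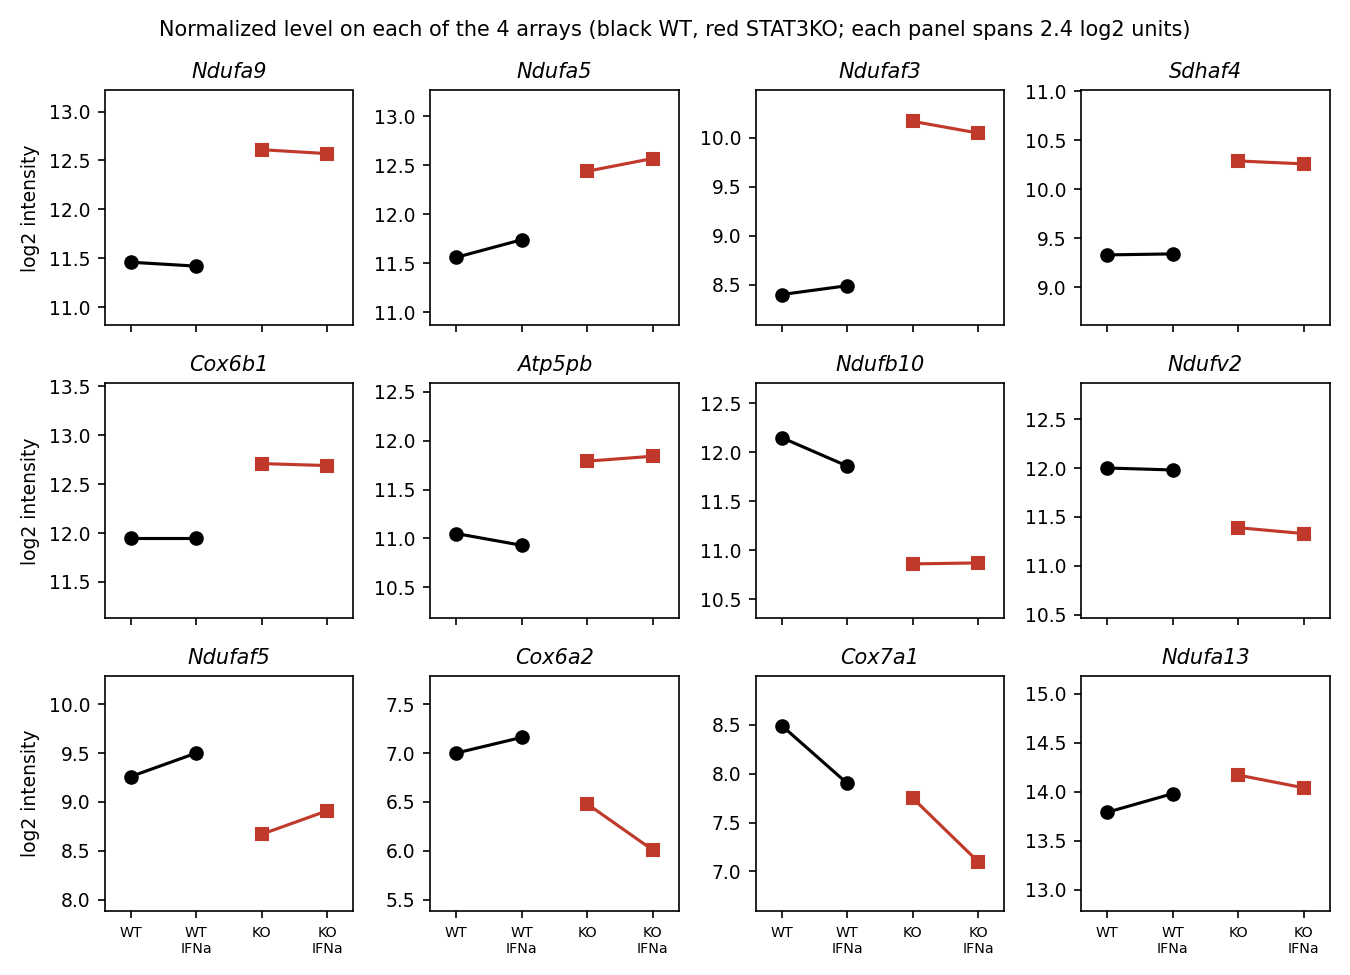
Normalized log2 intensity of 12 genes (brightest probe) on the 4 arrays, in the order WT, WT IFNa, STAT3KO (written KO) and STAT3KO IFNa, with black circles for WT and red squares for STAT3KO. Each point is 1 array, lines join the arrays of a genotype, and the vertical span is the same in each panel; the red points lie above the black in the first 6 genes and below them in the next 5, and Ndufa13 is the last.

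Assembly factors, the helper proteins, went both ways. Of 17 probes 6 were higher and 5 lower, with a median of 0.01, where 19.1% and 17.1% of all probes were higher and lower. With 1 probe a gene, 3 of 7 factors of complex I were higher and 1 lower. Of the 4 factors of complex II, 2 were higher and 2 lower. Over all named genes 23.2% were higher and 20% lower. The highest was Ndufaf3, which helps build the peripheral arm of complex I, at 8.40, 8.49, 10.17 and 10.05. Its mean difference of 1.66 ± 0.13 (SE; adjusted p = 4.43e-37), or 3.17-fold, was the largest of any member, and its other probe gave 0.82. Sdhaf4, which helps load the flavoprotein subunit of complex II, had 9.33, 9.34, 10.29 and 10.26, a difference of 0.94 (adjusted p = 2.21e-12). Sdhaf1, which guards the iron-sulfur subunit during assembly, had 9.30, 9.31, 9.79 and 9.79 by its brighter probe, a difference of 0.49 (adjusted p = 0.000569), while a dim second probe gave 0.01 (adjusted p = 0.968). The other 2 factors of complex II went the other way. Sdhaf3 had 8.78, 8.83, 8.48 and 8.46 and Sdhaf2, which attaches the flavin to Sdha, had 9.72, 9.68, 9.33 and 9.45, with differences of -0.34 and -0.31 (adjusted p = 0.0297 and 0.0395). Ndufaf5, which modifies a core subunit of complex I, was lower by both probes. Its brighter probe had 9.26, 9.50, 8.67 and 8.91, a difference of -0.59 (adjusted p = 2.4e-05). The 3 probes of Ndufaf4 disagreed: the brightest had 11.04, 11.08, 11.09 and 11.45, a difference of 0.21 (adjusted p = 0.244), another gave -0.99 (adjusted p = 2.44e-13) and the third -0.13. No direction is given for that gene. Ndufaf1, which assists the membrane arm, was higher at 9.65, 9.80, 10.32 and 10.10, a difference of 0.49 (adjusted p = 0.000658). Over the members, 23 genes had several detected probes, of which 18 had the same sign by every probe and 14 the same call, and 0 had opposite calls.

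Complex II oxidises succinate and is shared with the citric acid cycle. Its 4 detected probes of 3 genes split into 2 higher, 0 lower and 2 not called, where 19.1% and 17.1% of all probes were higher and lower. Sdhb, the iron-sulfur subunit, had levels of 11.69, 11.46, 12.13 and 12.16, a difference of 0.57 (adjusted p = 0.000495). A second, dim probe of Sdhb, not detected in WT untreated, gave 0.18 (adjusted p = 0.456). Sdhc, a membrane anchor, had 11.33, 10.92, 11.59 and 11.75, a difference of 0.54 (adjusted p = 0.000469). Sdhd, the other anchor, had 11.54, 11.46, 11.78 and 11.89, and its 0.34 was just short of the call (adjusted p = 0.0536). All 3 genes had both STAT3KO arrays above both WT arrays. How many of all probes did so was not counted, so this gives no separate support to a direction. The only probe of the flavoprotein subunit Sdha was not detected, so nothing is said of that gene.

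Complex III passes electrons from ubiquinol to cytochrome c. Its 7 probes, 1 for each of 7 genes, split into 2 higher, 2 lower and 3 not called. Over all probes 19.1% were higher and 17.1% lower. Of the 2 lower, Uqcrfs1 passed the detection score on 1 array alone, the array where it was brightest. Uqcr11, a small subunit, had levels of 11.04, 10.92, 11.80 and 11.61, a difference of 0.72 (adjusted p = 1.31e-06). The core proteins Uqcrc1 and Uqcrc2, which form the matrix part of the complex, differed in their calls. Uqcrc1 had 12.13, 12.16, 12.08 and 12.24, a difference of 0.02 (adjusted p = 0.959), with overlapping genotypes. Uqcrc2 had 12.34, 12.25, 12.74 and 12.68, a difference of 0.41 (adjusted p = 0.0281). Uqcrq, a small subunit near cytochrome b, had 8.46, 8.52, 8.07 and 7.94, a difference of -0.48 (adjusted p = 0.00146). Uqcrfs1, the Rieske iron-sulfur protein, was detected only in WT IFNa, so its levels of 6.44, 6.54, 6.08 and 5.74 lie at background and give no support to a direction. With IFNa it was at least 1.05-fold lower in STAT3KO, and its fitted -0.57 (adjusted p = 0.0016) is not a bound.

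Complex IV hands electrons to oxygen, and several of its subunits exist as a ubiquitous form and a form of muscle, lung or testis. The 14 probes of ubiquitous forms split into 6 higher, 0 lower and 8 not called, with a median of 0.34. Over all probes 19.1% were higher and 17.1% lower. With 1 probe a gene, 4 of 10 genes were higher and 0 lower, where 23.2% and 20% of all named genes were. Those called were Cox6b1, which faces the space between the membranes, Cox5b, Cox7a2 and Cox7c. Cox6b1 had levels of 11.95, 11.95, 12.71 and 12.69, a difference of 0.75 (adjusted p = 9.41e-06), and its other probe gave 0.76. Cox7c had 12.88, 13.14, 13.72 and 13.55, a difference of 0.63, and its other probe gave 0.74. Cox5b had 13.41, 13.48, 14.02 and 14.04, a difference of 0.58, while its other probe gave 0.24 and was not called (adjusted p = 0.137). Cox7a2, the liver form of subunit 7a, had 10.36, 10.45, 10.85 and 10.81, a difference of 0.43 (adjusted p = 0.00441). Cox4i1 (14.52, 14.75, 14.86 and 14.61), Cox6a1 (12.24, 12.27, 12.36 and 12.29) and Cox8a (13.28, 13.69, 13.72 and 13.40) were not called, at 0.10, 0.07 and 0.08, and the genotypes overlapped in Cox4i1 and Cox8a. The other probe of Cox6a1 gave -0.12. Cox5a and Cox7b, at -0.16 each, and Cox6c, at 0.50 (adjusted p = 0.073), were not called either.

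Of the 4 probes of tissue forms, 0 were higher, 2 lower and 2 not called, where 19.1% and 17.1% of all probes were higher and lower. Only 1 of the 4 was detected on all 4 arrays, so the count is too small to set against that of the ubiquitous forms. Cox7a1, the heart and muscle form of subunit 7a, had levels of 8.49, 7.90, 7.75 and 7.10, a mean genotype difference of -0.77 ± 0.14 (SE; adjusted p = 3.7e-07). Its WT IFNa value lay near its STAT3KO untreated value. Cox6a2, the heart and muscle form of subunit 6a, had 7.00, 7.16, 6.48 and 6.01, a difference of -0.84 ± 0.16 (SE; adjusted p = 8.65e-07). It was not detected in STAT3KO IFNa, and with IFNa it was at least 1.63-fold lower in STAT3KO. Cox4i2, a form of lung, and Cox6b2, a form of testis, were detected only in STAT3KO untreated, at 6.36, 6.09, 6.39 and 6.32 and at 6.31, 6.25, 6.48 and 6.02, so no direction is given. Of 12 muscle markers on the array, 6 were not detected, Des, Mb, Myf5, Myh8, Myod1 and Myog among them. The detected ones were 2, 1, 5 and 5 on the 4 arrays, and the list's summed intensity was 1187, 1137, 1352 and 1269. Of the 6 detected on any array, 3 were higher in STAT3KO and 1 lower. The 3 were Tnnt1, Tnnt3 and Tnni1, with the largest difference in Tnni1 (1.57). Each of them passed the detection score on 2 arrays alone, so their count gives no support to a direction. The lower one was Acta1 (-0.39), the only one of the 6 detected on all 4 arrays. The part of muscle-type expression in the values of Cox7a1 and Cox6a2 was not tested.

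ATP synthase consists of a catalytic head, F1, and a membrane part with a stalk. Of its 22 probes of 16 genes 8 were higher, 0 lower and 14 not called. Over all probes 19.1% were higher and 17.1% lower. With 1 probe a gene, 4 of 16 genes were higher, near the 23.2% of all named genes, and 0 were lower, where 20% were. The difference was positive in 21 of the 22 probes, with a median of 0.32, and in 9878 of all 19656 probes. Atp5pb, a subunit of the peripheral stalk, had levels of 11.05, 10.93, 11.79 and 11.84, a difference of 0.82 (adjusted p = 3.37e-08), while its other probes gave 0.58, called, and 0.08, not called. Atp5a1, the alpha subunit of F1, had 11.52, 11.46, 12.12 and 12.27, a difference of 0.70 (adjusted p = 1.07e-05), and its other probe gave 0.55. Atp5j, Atp5k and Atp5l, small subunits of the stalk and membrane part, were each called higher by at least 1 probe. Atp5c1, the central shaft that turns inside the head, had 13.52, 13.49, 13.97 and 13.87, and its 0.41 was not called (adjusted p = 0.0836). Atp5d and Atp5e, at the foot of the shaft, gave 0.05 and 0.27. Atp5md, a small membrane subunit, was the only negative value of the complex, at -0.15 (adjusted p = 0.441). The catalytic beta subunit Atp5b had 14.90, 15.57, 15.57 and 15.12, a difference of 0.11 (adjusted p = 0.829). The proton-carrying ring subunit is encoded by Atp5g1, Atp5g2 and Atp5g3. Their levels were 12.29, 12.15, 12.39 and 12.72, then 11.68, 11.59, 11.63 and 11.78, then 14.63, 15.28, 15.42 and 15.10. None was called, and the differences were 0.34, 0.07 and 0.31.

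**Figure D3:**
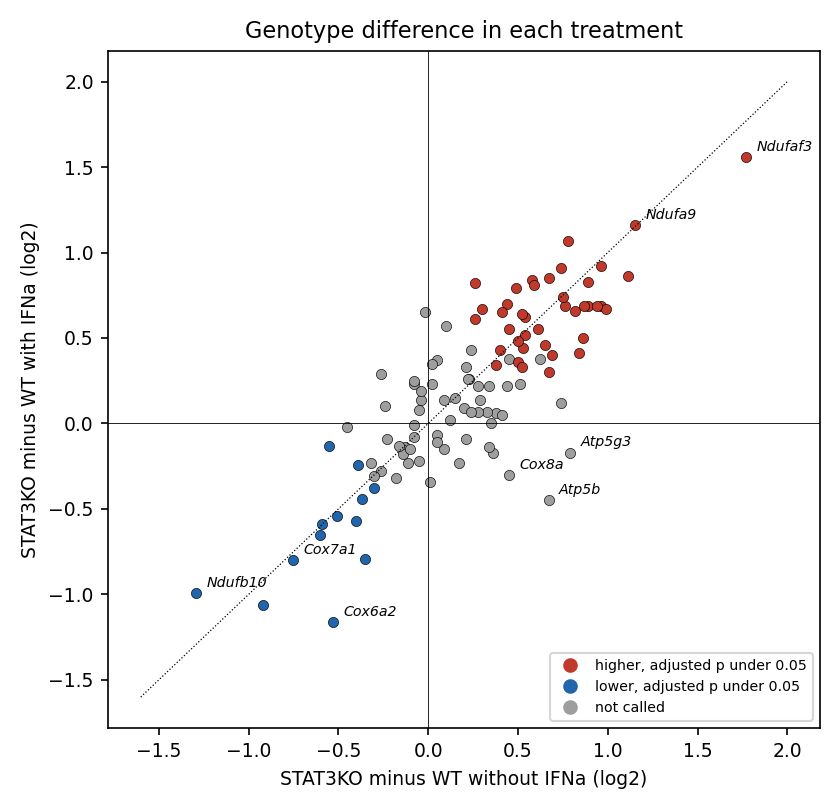
STAT3KO minus WT (log2) without IFNa on the horizontal axis and with IFNa on the vertical axis, 1 point for each of the 112 probes, with a dotted line of equal differences. The 40 red and 13 blue points, called higher and lower on the mean of both axes, lie at the upper right and the lower left.

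The response to 2 h of IFNa was read in the same way. Of the 112 probes 0 were higher and 1 was lower in the mean response by limma, and 1 had an unadjusted p under 0.05, the same probe. Over all probes 1.09% were called, 0.87% higher and 0.224% lower, so the members' share was near that of the whole array. The median response was 0.03 in WT, against 0.01 over all probes, and -0.02 in STAT3KO, against -0.03. In 108 of 112 probes both responses were under 1.5-fold, and in 86 (76.8%) both were within 1.2-fold, where 71.4% of all probes were. The responses of the 2 genotypes had opposite signs in 69 of 112 (61.6%), where 57.4% of all probes did. At 1.5-fold, 2 members were higher and 1 lower in WT, where 0.656% and 0.407% of all probes were. The 2 were Atp5b and Atp5g3, at 0.68 and 0.65, which had responses of -0.45 and -0.32 in STAT3KO. In STAT3KO 0 were higher and 2 lower, where 1.25% and 0.509% were, and the 2 were Cox7a1 and Ndufv3. At 2-fold 0 members were past the limit in either genotype and direction, where 0.275% of all probes were higher and 0.0254% lower in WT, and 0.514% and 0.0204% in STAT3KO.

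The called probe was that of Cox7a1. It fell by 0.59 in WT and by 0.64 in STAT3KO, a mean response of -0.62 ± 0.14 (SE; adjusted p = 0.00179), or 1.53-fold lower. The genotype and IFNa differences of this gene share the same 4 arrays. The call was lost with scaling to the 75th percentile, where the mean response was -0.61 (adjusted p = 1). Among genes detected on all 4 arrays, the next lowest mean responses were those of Ndufv3, at 12.92, 12.86, 13.28 and 12.70, Ndufa8, at 10.81, 10.44, 10.37 and 10.42, and Uqcrb, at 11.62, 11.13, 11.60 and 11.78. Their mean responses were -0.32, -0.16 and -0.16, and in Ndufa8 and Uqcrb the genotypes went opposite ways. Among the same genes the highest mean responses were 0.24 in Ndufaf5, 0.23 in Ndufb6 (12.64, 12.93, 12.52 and 12.69), 0.20 in Atp5o (7.12, 7.15, 7.13 and 7.50) and 0.20 in Ndufaf4, none of them called.

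**Figure D4:**
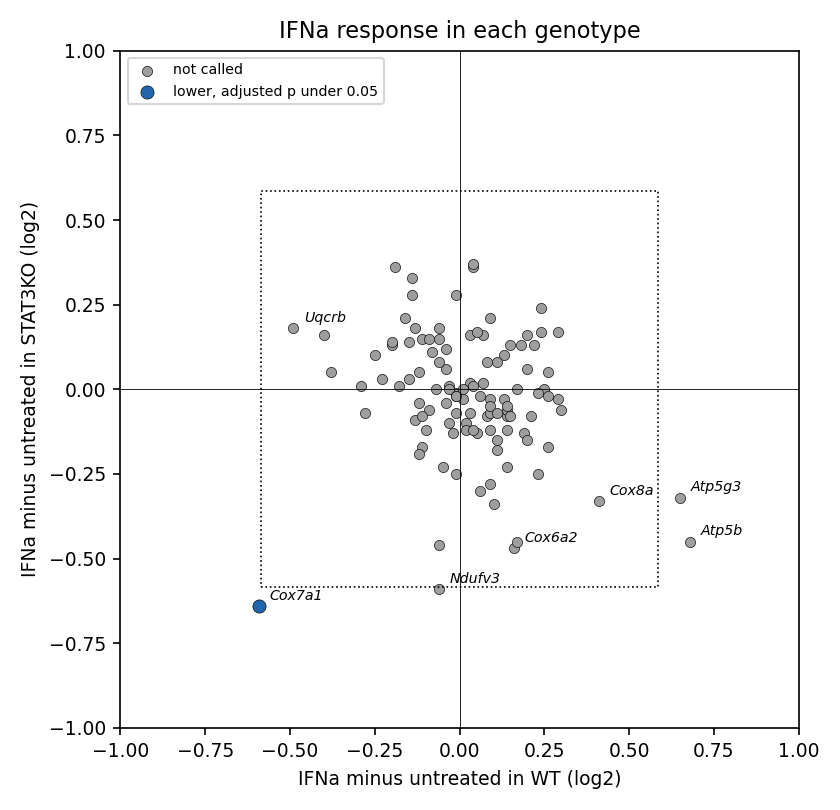
IFNa minus untreated (log2) in WT on the horizontal axis and in STAT3KO on the vertical axis, 1 point for each of the 112 probes; the dotted square encloses responses under 1.5-fold in both genotypes. Of the 112 points 108 lie inside the square, and Cox7a1, in blue, lies beyond it at the lower left.

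Other mitochondrial genes were read in the same fit, with the brightest probe of each gene. Over all 10530 detected genes read that way, 23.2% were higher and 20% lower. The mitochondrial ribosome, which makes the subunits encoded by mitochondrial DNA, had 26 of 71 detected genes higher and 8 lower, with a median of 0.20. Mrps35 (1.54), Mrpl24 (1.48), Mrpl53 (1.31) and Mrps21 (1.16) had the largest differences. Electron carriers, coenzyme Q synthesis and the ATPase inhibitor had 5 of 8 detected genes higher and 0 lower, with a median of 0.48. Coq9 was higher by 0.85, and Cyc1, the cytochrome of complex III whose name lies outside the rule, by 0.44. The citric acid cycle split evenly, with 3 of 11 genes higher and 3 lower and a median of -0.04. Suclg1 (0.78) and Fh1 (0.56) were higher, and Ogdh (-0.47) was lower. Of 20 detected assembly factors outside the name rule, 4 were higher and 4 lower, with a median of 0.14. Of 9 detected regulators of mitochondrial genes, Ppargc1b, a coactivator of such genes, was higher (0.43, adjusted p = 0.0116) and 0 were lower, with a median of 0.08. Nrf1, Gabpa, Tfam and Esrra were not called, at -0.25, 0.08, 0.18 and 0.01. With 1 array a group, these medians describe the lists on these arrays, beside the 0.00 over all probes.

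**Figure D5:**
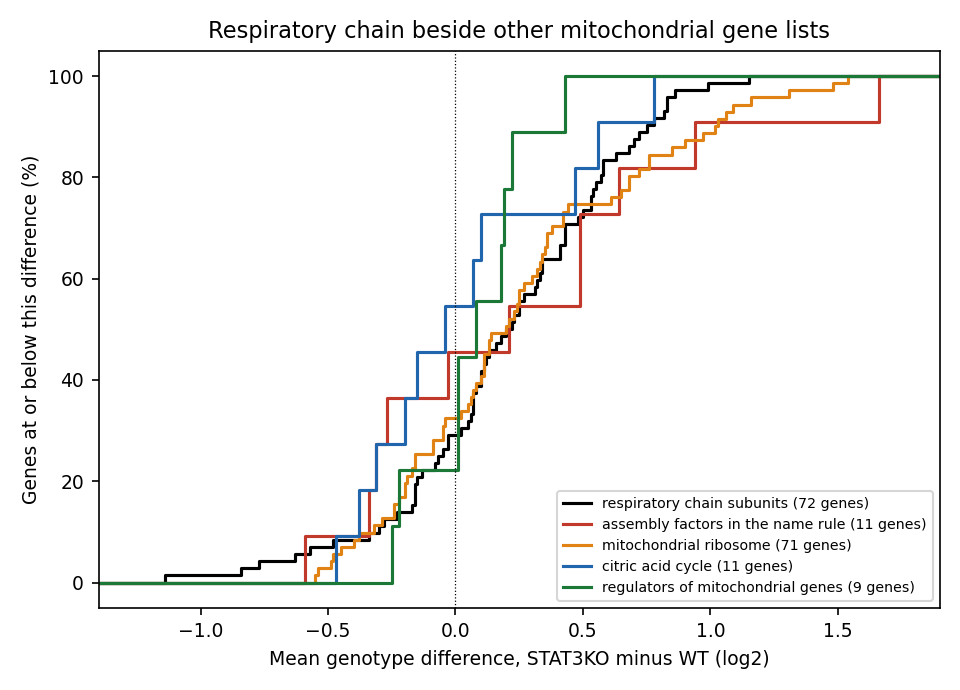
Cumulative share of genes (percent) at or below each mean genotype difference (STAT3KO minus WT, log2), for respiratory chain subunits, the assembly factors within the name rule and 3 further mitochondrial lists, with the number of genes in the key. The curves of subunits and mitochondrial ribosome lie to the right of 0 at their middle, and that of the citric acid cycle passes close to 0.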

How the data were processed

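Total RNA of 4 samples was hybridised to Illumina mouse bead arrays, 1 for each group, and the groups were taken from the labels. BeadStudio 3.2.3 is named in the submitters' processing notes, and how the authors normalized is not stated in those sources. The authors deposited a linear intensity per probe with a detection score, a fraction from 0 to 1, per the file headers, and also normalized intensities with a median of 75.0 on every array, without background subtraction, which compresses the folds of dim probes. The header of the WT untreated intensities calls them already normalized, so the normalized values were used, as the 1 deposited set in which all arrays had the same processing. A probe was detected at a score above 0.99.

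Log2 of the deposited normalized values was fitted with limma 3.58.1 in R 4.3.3 (terms for genotype and treatment, moderated with a trend in brightness, and p-values adjusted by Benjamini-Hochberg over 19656 probes). The prior degrees of freedom came out infinite, so the standard errors depend on brightness alone. The difference of responses leaves no residual degree of freedom and has no test. The fit was tested on simulated data. A probe not detected on an array gives a lower bound, written "at least", against the higher of the lowest detected signal there and its own. The number of arrays limits the precision. Gene symbols came from the platform table (29976 probes with 1 symbol, 10 with several, 16646 with none). All 132 member probes matched RefSeq by Entrez ID.

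The members, lists and tests were chosen with earlier results of these data known. All 4 values are given for the 8 genes with the largest genotype difference in each direction among those called, the 4 largest mean IFNa responses in each direction (if all 4 arrays detected the gene), isoform pairs and chosen subunits; up to 4 genes of each other list were named by size, and further ones (Cyc1, Nrf1, Gabpa, Tfam, Esrra, Vim, Thy1, Krt19, Nes, Idh3a and most assembly factors outside the rule) after their values were seen. Alternatives were background correction (normexp), scaling to the 75th percentile, loess, an added pseudocount of 16, other filters on detection, 1 probe a gene and no intensity trend.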

Additional observations from a re-analysis of the deposited data

Results flagged for a closer look

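Atp5b, Atp5g3 and Cox8a were picked out because their IFNa responses were at least 1.2-fold in opposite directions in the 2 genotypes. With 1 array a group, the difference was not tested. Atp5b, the catalytic beta subunit of ATP synthase, was 0.68 higher in WT and 0.45 lower in STAT3KO on the log2 scale (responses 0.68 and -0.45), a difference of -1.12. Atp5g3, 1 of the genes of the ring subunit, had responses of 0.65 and -0.32, a difference of -0.96. Cox8a had responses of 0.41 and -0.33, a difference of -0.74.

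Very bright probes did this more often. Of the 203 probes with a mean log2 level of at least 14, 32 (15.8%) were at least 1.2-fold higher in WT and lower in STAT3KO, against 2 of 599 (0.334%) at a level of 12 to 14. Atp5b and Atp5g3, at mean levels of 15.29 and 15.11, belonged to the bright set. Cox8a, at 13.52, did not, and lay in the set at 12 to 14. The 10th and 90th percentiles of the WT response were -0.55 and 0.49 in the bright set and -0.22 and 0.20 in the other. With scaling to the 75th percentile the responses were 0.12 and 0.16 in Atp5b and 0.24 and 0.23 in Atp5g3, while Cox8a kept 0.69 and -0.47. With normexp they were 0.45 and -0.25 in Atp5b. The part of brightness and scaling in these values was not tested.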

How the results depend on the processing

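No paired analysis was possible because each group had 1 array. The p-values hold no spread between cultures, the deposited normalization cannot be undone for WT untreated, and dim probes have compressed folds. Scaling to the 75th percentile changed most: 1 member was higher instead of 40 and 2 lower instead of 13, 0 instead of 1 was lower after IFNa, and the median responses were 0.41 in WT and -0.24 in STAT3KO, where all probes had medians of 0.15 and -0.12, against 0.03 and -0.02 by the deposited values. The cause was not tested. In that setting WT untreated enters already normalized and the other arrays do not, which holds for the normexp setting too. Over all probes it called 928 higher and 955 lower between genotypes and 64 higher and 2 lower after IFNa, against 3746, 3353, 171 and 44. The share of IFNa calls that were higher was 97% there and 93.5% without a detection filter, against 79.5%. Of the 53 genotype calls, normexp, loess and the pseudocount each kept 53 and the fit without a trend 49. By single differences, 2-fold gave 3 higher in each treatment and 1 (untreated) and 2 (IFNa) lower; 1.5-fold gave 5 and 7 lower. Subunits alone had 8 lower. For IFNa, 1.5-fold gave 2 higher in WT and 2 lower in STAT3KO, and 2-fold gave 0 lower in each. The median genotype difference was 0.26 with normexp, 0.12 with no filter and 0.27 untreated, against 0.22. Of 370 values of named genes under alternatives, 315 kept sign and call, 28 uncalled ones changed sign without a call, and 25 lost the call, 22 of these with the 75th percentile. Genotype differences made up 7 of the 28, among them Atp5b (0.11 to -0.02), Cox4i1 (0.10 to -0.04) and Cox8a (0.08 to -0.01) with the 75th percentile. The other 3 lost calls came from other probes of Ndufab1, Atp5pb and Sdhb. Sdhd was called with normexp (0.32, adjusted p = 0.0396). Ndufaf4 reversed with another of its probes (-0.99).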

Other observations

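Outside the name rule, Cox18, which helps insert a complex IV subunit into the inner membrane, was the only gene of the mitochondrial lists called after IFNa. Over all probes 1.09% were called. Cox18 was not among the genes read under the alternative settings. Its log2 levels were 10.22, 10.50, 10.17 and 10.98, which makes responses of 0.29 (WT) and 0.80 (STAT3KO) and a limma mean response of 0.55 (adjusted p = 0.00358). Of the other assembly factors outside the rule, Cox15 (0.68, adjusted p = 6.99e-07) and Cox17 (0.66, adjusted p = 3.78e-06), which serve the heme and copper of complex IV, were higher in STAT3KO. Cox11, a copper factor, was lower (-0.40, adjusted p = 0.00888). Cox10 (0.15), Cox19 (0.17), Sco1 (0.01) and Surf1 (-0.26), which also serve complex IV, were not called. Ecsit, an assembly factor of complex I, was lower (-0.64, adjusted p = 4.16e-05), and Uqcc2, an assembly factor of complex III, was lower as well (-0.46, adjusted p = 0.00444). Coq7 (0.59) and Coq5 (0.53), enzymes of coenzyme Q synthesis, and Atpif1 (0.62), the inhibitor of ATP synthase, were higher in STAT3KO. Idh3b was higher (0.47) and Idh3a lower (-0.31), although both encode subunits of the same dehydrogenase of the citric acid cycle.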
